A study of Mus musculus with 14 samples.

Results

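The enzymes described here carry out heme synthesis: Alas1, Alas2, Alad, Uros, Urod, Cpox, Ppox and Fech. They were chosen by name as the enzymes of 1 pathway, and all 8 were found among the 53735 gene symbols of both count tables. RNA was measured in 14 hearts of male C57BL/6 mice after tamoxifen. Knockout hearts (cKO) were Fam210afl/fl, alphaMHCMCM/+, so that tamoxifen-activated Cre, driven by the cardiomyocyte alphaMHC (Myh6) promoter, removed Fam210a, which encodes a mitochondrial protein, in cardiomyocytes. Control hearts were alphaMHCMCM/+ and carried the same Cre without floxed alleles, so Cre and tamoxifen were shared by both groups. Hearts were taken about 5 weeks (early, 4 cKO and 4 control) and about 10 weeks (late, 3 cKO and 3 control) after tamoxifen. The study's design text describes cardiac function as normal early and as strongly impaired late. The labels give no age, nor whether each library came from its own mouse, and p-values therefore cover only the spread among these libraries.

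Heme is an iron-holding ring made in almost every cell and carried by hemoglobin, myoglobin and the cytochromes of the respiratory chain. Its synthesis starts in the mitochondrion, where an ALAS enzyme joins glycine and succinyl-CoA, continues in the cytosol, where Alad, Uros and Urod act, and returns to the mitochondrion for Cpox, Ppox and Fech. Alas1 is the form of the first enzyme found in most tissues and sets the pace of the pathway there, while Alas2 is the form of developing red blood cells.

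Total counts were 15657298 to 19466469 in early hearts and 29989076 to 35750964 in late hearts. Fam210a stood at 146 ± 10.2 CPM (counts scaled to a common library size) in early cKO hearts and 170 ± 6.04 CPM in early control hearts (SD, n = 4 each; edgeR adjusted p = 0.17). In late hearts it stood at 66.8 ± 3.41 CPM in cKO and 128 ± 7.27 CPM in control (SD, n = 3 each; edgeR adjusted p = 6.5e-05). Heart tissue was measured in bulk, and the 8 cardiomyocyte markers summed to 58380 CPM or more in every heart. In such bulk samples, fewer cells of a type and less RNA per cell cannot be told apart. For replicate 4 of the early cKO hearts, the title and description say knockout and the genotype field gives the control genotype. Its Fam210a level was 150 CPM, where the early cKO hearts as grouped spanned 135 to 158 CPM and the early control hearts 165 to 178 CPM. Among early hearts, only cKO replicate 2 held Bmp10, an atrial gene, at a high level (165 CPM), and among late hearts only control replicate 3 did (104 CPM). Late cKO replicate 3 stood apart: its counts differed from those of cKO replicates 1 and 2 by 107 and 101 in chi-square over each gene, while replicates 1 and 2 differed by 21.5.

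The promoters of Alas1, Alas2 and Uros are shown because these enzymes gave the early fall, the late rise and the late fall with the smallest adjusted p described below. Each run holds the 250 bases before a start site, 5′ to 3′ on the gene's strand, from RefSeq on GRCm38.p6. Capitals mark matches to any of 11 short motifs on either strand. Windows were found for 7 of the 8 enzymes. Alas1 and Uros each have another start site in that table, whose windows are not shown. Of the 2 windows of each, the one with more kinds of motif matched is printed, a choice made after the matches were seen. The other Alas1 window holds a GC box and no NRF1 match, and the other Uros window holds antioxidant response elements and no E-box or GC box. Fech had none in the table used here. The Alas1 run lies at chr9:106247731-106247980 on the minus strand, the Alas2 run at chrX:150547167-150547416 on the plus strand and the Uros run at chr7:133709296-133709545 on the minus strand.
Alas1: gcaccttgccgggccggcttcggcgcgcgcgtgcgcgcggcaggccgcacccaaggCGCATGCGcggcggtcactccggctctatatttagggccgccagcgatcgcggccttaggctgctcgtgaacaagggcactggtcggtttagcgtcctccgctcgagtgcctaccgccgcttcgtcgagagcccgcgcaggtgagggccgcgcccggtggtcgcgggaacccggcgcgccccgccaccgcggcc
Alas2: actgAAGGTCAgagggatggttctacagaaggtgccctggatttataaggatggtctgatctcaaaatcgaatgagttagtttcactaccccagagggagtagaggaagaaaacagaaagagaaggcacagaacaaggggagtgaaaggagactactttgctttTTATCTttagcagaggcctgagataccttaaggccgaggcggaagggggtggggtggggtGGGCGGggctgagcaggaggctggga
Uros: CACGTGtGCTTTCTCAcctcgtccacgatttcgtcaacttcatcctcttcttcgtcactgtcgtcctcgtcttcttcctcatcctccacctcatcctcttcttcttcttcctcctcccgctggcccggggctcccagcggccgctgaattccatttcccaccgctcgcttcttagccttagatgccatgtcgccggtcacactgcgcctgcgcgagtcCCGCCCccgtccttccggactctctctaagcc

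In the Alas1 run the capitals mark a palindrome of NRF1, a factor of nuclear genes for mitochondrial proteins, spelled CGCATGCG. It lies 194 bases before the start, overlaps the shorter NRF1 core GCATGC, and is held by 1.55% of 32851 promoter windows of the same length. In the Alas2 run they mark, in order, an estrogen-related receptor element (AAGGTCA, in 4.08% of windows), a GATA element (AGATAA, here on the other strand as TTATCT, in 9.99%) and a GC box (GGGCGG, in 32.7%). In the Uros run they mark an E-box (CACGTG, in 6.02%), an antioxidant response element (TGANNNNGC, in 35.2%) and a GC box. The other motifs searched were CCAAT, the C/EBP-ATF response element TGATGNAAN, the FOXO element TGTTTAC and the cAMP response element TGACGTCA. A match describes letters in a window and is neither a bound site nor a cause of the values below.

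Early, while function was described as normal, Alas1 alone among the 8 enzymes passed the test, and it was lower in cKO hearts. Of 13529 genes tested, 0.0961% fell and 0.517% rose at an adjusted p under 0.05, against 1 of 8 enzymes that fell and 0 that rose. The enzymes' median log2 fold change was -0.12, beside 3e-04 over all tested genes. Alas1 stood at 165, 139, 142 and 131 CPM in cKO hearts and at 210, 218, 207 and 183 CPM in control hearts. Every cKO heart lay below every control heart. The log2 fold change was -0.50 (SE 0.08), a 1.42-fold lower level, with edgeR adjusted p = 0.012. The call was lost when early cKO replicate 4 was counted as a control, as its genotype field has it (log2 fold change -0.35, edgeR adjusted p = 0.272), and in a fit of all 14 hearts (-0.51, edgeR adjusted p = 0.0516). It stayed below 0.05 without any 1 heart, with adjusted p between 0.00285 and 0.0492.

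None of the other enzymes was called early, and all but the widely spread Alas2 lay close to their controls. Fech, which inserts iron into the finished ring, ranged over 130 to 141 CPM in cKO hearts and 141 to 147 CPM in control hearts. The groups of Fech did not overlap, but its log2 fold change of -0.09 (SE 0.05) did not pass edgeR's test over all genes (adjusted p = 0.58). Alad, which joins aminolevulinate molecules into porphobilinogen, stood at 30.1 ± 0.888 CPM in cKO and 34.3 ± 4.19 CPM in control hearts (SD, n = 4 each; edgeR adjusted p = 0.47). Uros, Urod, Cpox and Ppox, which shape and oxidise the ring, had log2 fold changes between -0.15 and 0.06 and groups that overlapped. Alas2 was low, at 45, 34, 49 and 43 counts in cKO hearts and 8, 25, 38 and 108 counts in control hearts. The control hearts spread wider than the cKO hearts on both sides, and the log2 fold change of -0.17 had an SE of 0.50. Without control replicate 4 it was 0.71 (edgeR adjusted p = 0.592).

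**Figure D1:**
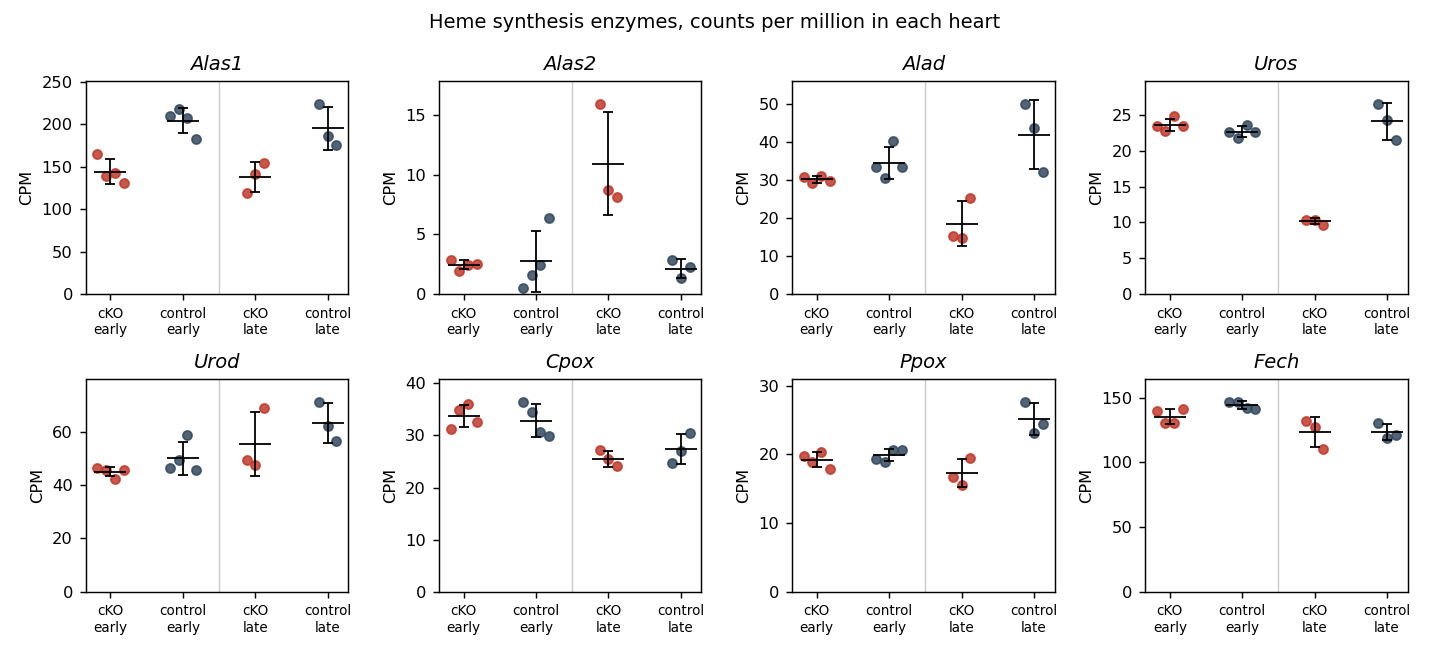
Level of each heme synthesis enzyme in CPM in each heart (points), with the mean and SD of each group (lines), cKO left of control at each time; early n = 4 and late n = 3 per group. The late Alas2 points of cKO hearts (8.16 to 15.9 CPM) and the late Uros points of cKO hearts (9.67 to 10.4 CPM) lie apart from their controls, while Fech and Cpox overlap late.

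Late, when function was described as impaired, Alas2 rose, Alas1, Alad, Uros and Ppox fell, and Urod, Cpox and Fech did not pass the test. The background was large: of 14942 genes tested, 31.8% rose and 33.2% fell, against 1 and 4 of the 8 enzymes. The enzymes' median log2 fold change was -0.35, beside -0.02 over all tested genes.

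At the first step the RNA of the 2 forms of the enzyme went opposite ways. Alas1 stood at 118, 141 and 154 CPM in cKO hearts and at 224, 186 and 176 CPM in control hearts. The groups did not overlap, and the log2 fold change of -0.50 (SE 0.14, edgeR adjusted p = 0.012) equalled the early one to 2 decimals. Without control replicate 1 it was -0.38 and missed the threshold (edgeR adjusted p = 0.0579). Alas2 had 529, 306 and 238 counts in cKO hearts and 87, 42 and 75 counts in control hearts. Its lowest cKO heart lay well above its highest control heart, at 8.16 CPM in cKO against 2.83 CPM in control. Alas2 rose 5.12-fold (log2 fold change 2.36, SE 0.34, edgeR adjusted p = 0.000263). Leaving out any 1 late heart gave log2 fold changes of 1.99 to 2.63 with adjusted p of at most 0.00127.

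In the cytosolic steps, Alad stood at 15.3, 14.8 and 25.2 CPM in cKO hearts and at 49.95, 43.6 and 32.1 CPM in control hearts. The cKO heart nearest to the controls was replicate 3, the one that stood apart as a whole. Alad fell 2.27-fold (log2 fold change -1.18, SE 0.23, edgeR adjusted p = 0.00181), and by 1.46 on the log2 scale without that heart. Uros, which closes the ring in its working form, stood at 10.4, 10.4 and 9.67 CPM in cKO hearts and at 26.6, 24.3 and 21.5 CPM in control hearts. The cKO values of Uros were the tightest of the late falls. It fell 2.37-fold (log2 fold change -1.25, SE 0.13, edgeR adjusted p = 3.32e-05). Urod, which trims the ring's side chains, stood at 49.4, 47.4 and 69.1 CPM in cKO hearts and at 71.4, 62.1 and 56.7 CPM in control hearts. The groups of Urod overlapped through cKO replicate 3 (log2 fold change -0.20, SE 0.17, edgeR adjusted p = 0.318). Without that heart Urod passed the test at -0.38 (edgeR adjusted p = 0.0122), which made 5 falls of 8 enzymes.

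In the mitochondrial steps, Ppox, which oxidises the ring to protoporphyrin, stood at 16.8, 15.6 and 19.5 CPM in cKO hearts and at 27.7, 23.2 and 24.4 CPM in control hearts. The groups of Ppox did not overlap. It fell 1.45-fold (log2 fold change -0.54, SE 0.13, edgeR adjusted p = 0.00586). Cpox, the enzyme before it, had 25.5 ± 1.55 CPM in cKO and 27.4 ± 2.93 CPM in control hearts (SD, n = 3 each), for a log2 fold change of -0.10 (SE 0.12, edgeR adjusted p = 0.479). Fech had 132, 127 and 110 CPM in cKO hearts and 130, 119 and 121 CPM in control hearts. Its log2 fold change was 0.00 (SE 0.11, edgeR adjusted p = 0.99), so Fech RNA differed by less than the spread between hearts. Protein and activity of the enzymes were not part of these data.

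**Figure D2:**
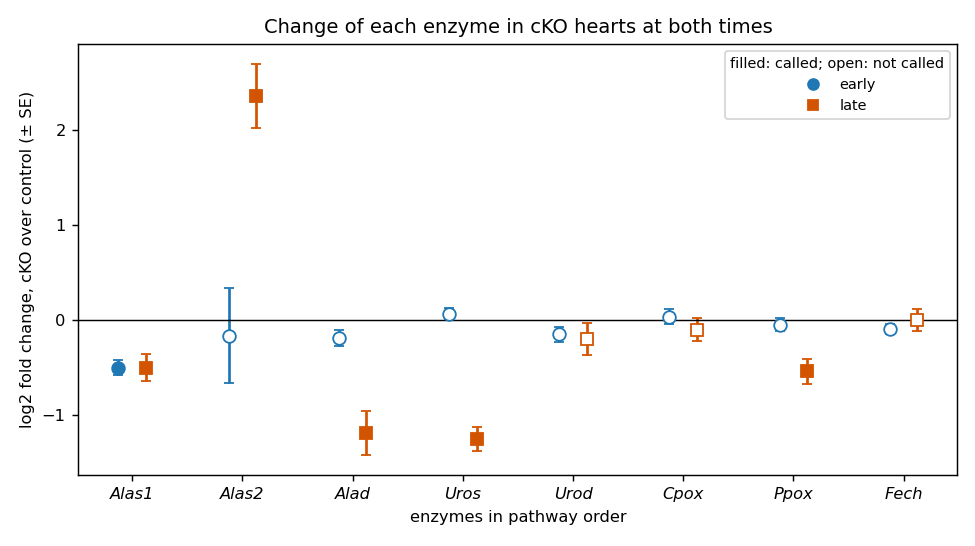
Log2 fold change of each enzyme, cKO over control, with its standard error, in pathway order (early circles, late squares; filled where the adjusted p was under 0.05). Alas1 sits at -0.50 at both times, Alas2 rises to 2.36 late, and Alad, Uros and Ppox are below 0 and filled late only.

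The change itself was then compared between times, as the late log2 fold change minus the early one in 1 fit of all 14 hearts. Each control came from the same table as its knockout. Of 14555 genes tested, 29.8% had a higher and 31.3% a lower fold change late, against 1 and 3 of the 8 enzymes. Alas2 had the higher one, by 2.53 (SE 0.70, edgeR adjusted p = 0.00534). The lower ones were -1.29 for Uros (SE 0.12, edgeR adjusted p = 2.37e-07), -0.98 for Alad (SE 0.25, edgeR adjusted p = 0.00303) and -0.47 for Ppox (SE 0.14, edgeR adjusted p = 0.00756). For Alas1 the difference was 0.02 with an SE of 0.16 (edgeR adjusted p = 0.932). For Urod, Cpox and Fech it was -0.03, -0.12 and 0.11, none past the test.

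The genes most like Alas2 across hearts were those of hemoglobin, the oxygen carrier of red blood cells. By the lower of its correlations of log2 CPM over 8 early and over 6 late hearts, the 5 most like of 11449 genes were Hba-a1, Hbb-bt, Hbb-bs, Hba-a2 and Gps1. For Hba-a1 the Pearson values were 0.977 early and 0.983 late. These values share libraries, and late they also carry the difference between cKO and control hearts, so they describe likeness in these hearts. Early, the Pearson value of Alas2 with the 4 hemoglobin genes summed was 0.955 over 8 hearts. It was 0.653 over 6 hearts without control replicates 4 and 1, the 2 farthest from the median in hemoglobin. Hba-a1 averaged 69.2 ± 19.3 CPM in late cKO and 13.7 ± 3.76 CPM in late control hearts (SD, n = 3 each), a rise of 2.34 on the log2 scale (edgeR adjusted p = 4.69e-05). Hbb-bs rose by 2.35 (edgeR adjusted p = 7.16e-05) and Hba-a2 by 2.06 (edgeR adjusted p = 0.000196). The 4 hemoglobin genes summed to 188 to 362 CPM in late cKO hearts and 41.4 to 71.4 CPM in late control hearts. Early, they summed to 32.2 to 58.3 CPM in cKO hearts and 13.9 to 136 CPM in control hearts, so the early control spread of Alas2 was matched by that of hemoglobin.

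Of 12 red blood cell markers, 11 were in the tables and 7 were tested late, of which 6 rose and 0 fell. Slc4a1, the anion exchanger of the red cell membrane, was called as higher, with 96, 68 and 36 counts in late cKO hearts and 1, 0 and 1 in late control hearts. Rhag and Tspo2 were at 0 in every early cKO and every late control heart, and Epb42 in every late control heart. Of the erythroid factors, Gata1 averaged 0.0201 CPM in late cKO and 0.0200 CPM in late control hearts and was too low to test. Of the 3 erythroid factors tested, none was called early. Late, Zfpm1 rose by 0.39 (edgeR adjusted p = 0.012), while Tal1 and Lmo2, which endothelial cells also express, fell by 1.68 (edgeR adjusted p = 0.000282) and 0.34 (edgeR adjusted p = 0.0368). The call of Zfpm1 held under 13 of 15 alternatives and was lost with upper quartile scaling among others (adjusted p up to 0.113). That of Lmo2 held under 8 of 15 and was lost with DESeq2, without a filter, and without cKO replicate 2 or any 1 control heart, among others (adjusted p up to 0.139). The part of red blood cell RNA in the late rise of Alas2 was not tested.

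Alas2 was therefore set against hemoglobin within each heart, a ratio chosen after its values were seen. Late, Alas2 had 44.0, 46.4 and 31.0 counts per 1000 hemoglobin counts in cKO hearts and 39.7, 31.9 and 41.6 in control hearts. The groups overlapped (exact two-sided permutation p = 0.6, n = 3 each, where the smallest possible is 0.1). Early, it had 49.0, 61.2, 62.4 and 62.9 in cKO hearts and 34.5, 42.8, 41.5 and 47.2 in control hearts. Here every cKO heart lay above every control heart (exact two-sided permutation p = 0.029, n = 4 each, the smallest possible). The highest ratio was that of cKO replicate 4, and with this heart counted as a control, as its genotype field has it, the groups overlapped (exact two-sided permutation p = 0.161). The early ratios rest on 8 to 108 Alas2 counts. The lowest cKO heart had a 95% interval of 35.5 to 66.1 and the highest control heart one of 38.5 to 57.2, which overlap (exact Clopper-Pearson intervals, turned into ratios, which cover counting error only).

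**Figure D3:**
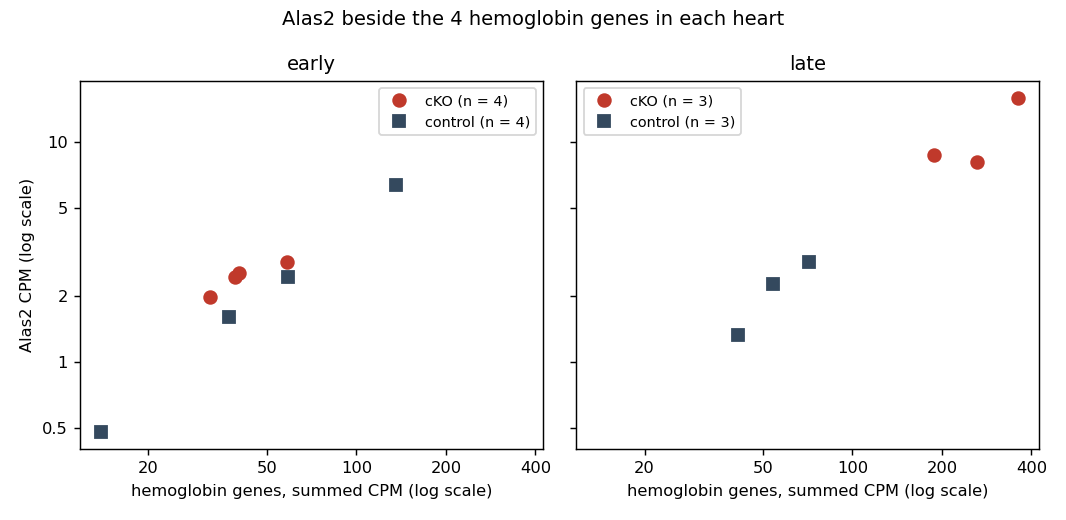
Alas2 (vertical, CPM, log scale) against the summed CPM of the 4 hemoglobin genes (horizontal, log scale) in each heart (points; cKO circles, control squares; n = 4 per group early, n = 3 late). Late cKO hearts lie at 188 to 362 CPM of hemoglobin and late control hearts at 41.4 to 71.4 CPM, and within each group Alas2 is higher where hemoglobin is higher, except among the late cKO hearts.

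For levels between enzymes, counts were divided by exon length and scaled to a common total (TPM). In late cKO hearts the order was Alas1 (60.8 ± 5.96 TPM), Urod (58.0 ± 10.6), Alad (26.7 ± 7.54), Fech (24.4 ± 3.09), Alas2 (12.5 ± 5.37), Cpox (10.5 ± 1.003), Ppox (10.4 ± 0.942) and Uros (7.76 ± 0.584), all as SD with n = 3. In late control hearts it was Alas1 (81.5 ± 7.64 TPM), Urod (63.2 ± 5.68), Alad (57.7 ± 11.5), Fech (23.0 ± 0.256), Uros (17.4 ± 1.54), Ppox (14.3 ± 0.679), Cpox (10.7 ± 1.41) and Alas2 (2.27 ± 0.725). Uros thus stood last in late cKO hearts, where Alas2 stood last in late control hearts. The ranges of neighbours overlapped, so their order is not fixed, for Alas1 with Urod, Alad with Fech, Alas2 with Cpox, and Cpox with Ppox in cKO hearts, and for Urod with Alad in control hearts. With the length of the principal transcript instead, Alas2 came last and Uros next to last in late cKO hearts, with overlapping ranges. Early, Alas1 led and Alas2 was last in both groups, at 55.9 ± 4.26 and 2.44 ± 0.312 TPM in cKO hearts and at 82.0 ± 6.07 and 2.81 ± 2.69 TPM in control hearts (SD, n = 4 each).

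Alas2 made up 25.7%, 13.7% and 12.0% of the summed Alas1 and Alas2 TPM in late cKO hearts and 3.15%, 1.80% and 3.18% in late control hearts. Every late cKO heart was above every late control heart (exact two-sided permutation p = 0.1, n = 3 each, the smallest possible). With the principal transcript as length the means were 11.9% in late cKO and 1.78% in late control hearts. Early shares were 4.18% ± 0.504 in cKO and 3.41% ± 3.37 in control hearts (SD, n = 4 each; exact two-sided permutation p = 0.686).

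The genes most like Alas1 were Nmnat1, Stom, Dlat, RP24-122D14.1 and Zdhhc1, with Pearson values of 0.93 early and 0.982 late for Nmnat1 and 0.958 and 0.928 for Stom. Dlat is a subunit of pyruvate dehydrogenase and Nmnat1 makes nuclear NAD. All 5 fell late and none was called early. Late log2 falls ran from 0.32 for Nmnat1 (edgeR adjusted p = 0.0422) to 0.88 for Zdhhc1 (edgeR adjusted p = 0.000226). The genes were picked by likeness over cKO and control hearts together, and Alas1 was lower in the cKO hearts. Their late falls therefore follow in part from that choice and are not a separate result.

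The kit does not mark the strand, so reads of overlapping genes cannot be told apart. Apex2 shares 311 exon bases with Alas2, which is 12.9% of the exon bases of Alas2, and fell late by 2.35 on the log2 scale (edgeR adjusted p = 1.65e-05), the opposite way from Alas2. B4galt3 shares 791 exon bases with Ppox (17.5%) and was not called late (log2 fold change -0.20, edgeR adjusted p = 0.243). Alas1 shares 465 exon bases (7.53%) with the antisense gene 4930500F10Rik, which was not analysed here. Uros shares no exon base with its neighbour Bccip, whose late log2 fold change was 0.00. On GRCm38, Alas1 lies on chromosome 9 from 106233455 to 106248654, Alas2 on X from 150547375 to 150570638, Alad on 4 from 62509169 to 62519918, Uros on 7 from 133686243 to 133710072 and Ppox on 1 from 171275990 to 171281186. Urod lies on chromosome 4 from 116989965 to 116994413, Cpox on 16 from 58670292 to 58717636 and Fech on 18 from 64452914 to 64490251.

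The counts of gene lists around the pathway stand beside a late background in which 31.8% of all tested genes rose and 33.2% fell, 65% in all. Among the enzymes that break heme down, Hmox1 was called at both times and Hmox2 and Blvra late, while Blvrb was not called (late log2 fold change -0.02, edgeR adjusted p = 0.949). Hmox1, the inducible heme oxygenase, averaged 14.6 ± 3.09 CPM in early cKO and 7.94 ± 0.726 CPM in early control hearts (SD, n = 4 each). It rose early by 0.88 on the log2 scale (SE 0.15, edgeR adjusted p = 0.0149). The early call was lost without cKO replicate 2 or without control replicate 2, 3 or 4, with adjusted p up to 0.0603. Late, Hmox1 averaged 77.03 ± 10.9 CPM in cKO and 11.9 ± 1.65 CPM in control hearts (SD, n = 3 each), with a log2 fold change of 2.70 (edgeR adjusted p = 1.65e-06). Of the 4 breakdown enzymes, 1 rose and 0 fell early, and 3 rose and 0 fell late. The constitutive oxygenase Hmox2 rose late by 0.83 and the biliverdin reductase Blvra by 1.13 on the log2 scale. The list's median log2 fold change was 0.98 late.

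Regulators of Alas1 and proteases that degrade ALAS were split. Early, 1 of 12 rose and 1 fell. Lonp1, a mitochondrial protease, rose by 0.49 (edgeR adjusted p = 0.0256), and Ppargc1a, the coactivator PGC-1alpha, fell by 0.58 (edgeR adjusted p = 0.0223). Their part in the early fall of Alas1 was not tested. Both calls were lost without cKO replicate 2 or 3 or without control replicate 1, 2 or 4, and that of Ppargc1a also in the fit of all 14 hearts (edgeR adjusted p = 0.416). Late, 2 rose and 4 fell of 12. The least firm fall held under 10 of 15 alternatives. Lonp1 averaged 966 ± 124 CPM in cKO and 169 ± 4.41 CPM in control hearts (SD, n = 3 each), a rise of 2.51 on the log2 scale (edgeR adjusted p = 1.05e-06). Clpx, the unfoldase that acts on ALAS, rose late by 0.81 (edgeR adjusted p = 0.000279). Nr1d1 and Nr1d2, the heme-binding clock repressors REV-ERB alpha and beta, fell late by 1.60 (edgeR adjusted p = 1.23e-05) and 1.25 (edgeR adjusted p = 0.000627). Ppargc1a was not called late (log2 fold change -0.49, edgeR adjusted p = 0.135).

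Of 10 genes that make or use glycine and succinyl-CoA, the substrates of the first step, none was called early. Late, 2 rose and 6 fell, a share called of 8 in 10 beside 65% of all tested genes, with a median of -0.61 beside -0.02. Shmt2, which makes glycine from serine in mitochondria, rose by 2.62 on the log2 scale (edgeR adjusted p = 1.19e-06). Sucla2, a succinyl-CoA ligase subunit, fell by 1.20 (edgeR adjusted p = 5.38e-05), Oxct1, which uses succinyl-CoA for ketones, by 1.49 (edgeR adjusted p = 0.000106) and Gcat, of threonine breakdown to glycine, by 1.92 (edgeR adjusted p = 0.000299).

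Of 12 tested heme and porphyrin transport genes, none was called early, and 6 rose and 3 fell late. That is 9 in 12 called, beside 65% of all tested genes. The rise nearest to the threshold (edgeR adjusted p = 0.0498) held under 5 of 15 alternatives. Tspo, an outer membrane protein that binds porphyrins, rose by 2.46 on the log2 scale (edgeR adjusted p = 8.26e-06) and Slc25a39, a mitochondrial glutathione carrier, by 2.03 (edgeR adjusted p = 1.5e-05). Slc46a1, a folate carrier also described for heme, fell by 2.54 (edgeR adjusted p = 5.31e-05). Abcb10, a mitochondrial transporter of erythroid heme synthesis, fell by 0.67 (edgeR adjusted p = 0.00112). Of iron genes, 0 of 13 were called early, and 7 rose and 3 fell of 14 late. The least firm of these rises held under 8 of 15 alternatives. Slc40a1, the iron exporter ferroportin, stood at 1.97 ± 0.263 CPM in late cKO and 26.5 ± 4.19 CPM in late control hearts (SD, n = 3 each) and fell by 3.74 on the log2 scale (edgeR adjusted p = 6.59e-07). Steap3, a ferrireductase, fell by 2.11 (edgeR adjusted p = 1.16e-06), and the ferritin light chain Ftl1 rose by 0.92 (edgeR adjusted p = 0.000661). The transferrin receptor gene Tfrc was not called late (log2 fold change -0.09, edgeR adjusted p = 0.752).

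Of 15 iron-sulfur cluster genes tested late, 4 rose and 4 fell, and 4 rose and 9 fell without cKO replicate 3, with none of 14 called early. Hspa9, the mitochondrial chaperone mortalin, rose by 1.497 on the log2 scale (edgeR adjusted p = 9.64e-06) and Nfu1, a carrier of clusters, by 1.41 (edgeR adjusted p = 8.07e-05). Among 9 genes of heme insertion and mitochondrial heme proteins, 2 rose and 5 fell late and none was called early. The weaker rise held under 7 of 15 alternatives, and the least firm fall under 8 of 14. The cytochrome oxidase subunit mt-Co1 fell by 1.82 (edgeR adjusted p = 9.41e-05) and Hccs, which attaches heme to cytochromes c, by 0.67 (edgeR adjusted p = 0.000928). Cox10, which converts heme to heme O on the way to heme A, rose by 0.76 (edgeR adjusted p = 0.000453). Among 11 genes of other heme proteins and of proteins that work with them, 5 rose and 6 fell late and none was called early. Mb, myoglobin, fell by 2.62 (edgeR adjusted p = 5.18e-06). Cyb5r3, the reductase of cytochrome b5 and not itself a heme protein, rose by 2.48 (edgeR adjusted p = 7.82e-07).

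**Figure D4:**
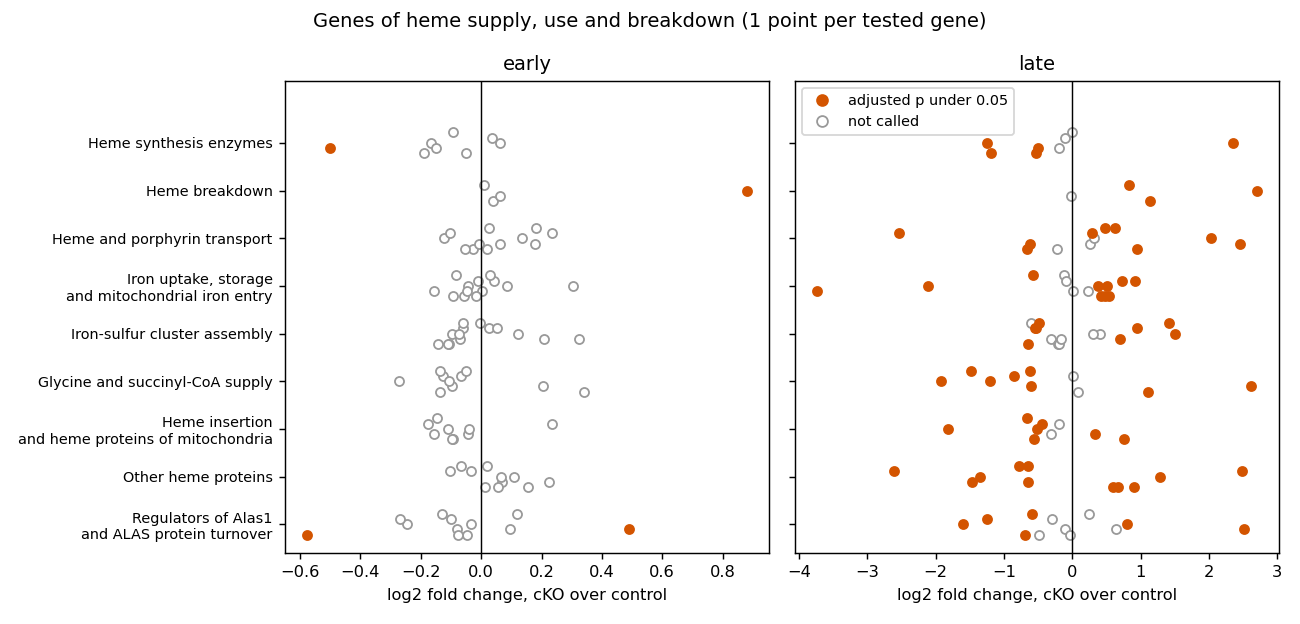
Log2 fold change, cKO over control, of each tested gene (points) of the heme synthesis enzymes and of the lists around them, early at left and late at right, where the horizontal scales differ (filled where the adjusted p was under 0.05). Few points are filled early, Alas1 at -0.50 and Hmox1 at 0.88 among them, while late most lists hold filled points on both sides of 0, and heme breakdown on the higher side only.

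Markers of other cell types moved with the late comparison. All 6 endothelial markers fell, with sums of 630 to 671 CPM in late cKO and 1479 to 1628 CPM in late control hearts. Of 8 macrophage markers 5 fell, with sums of 160 to 195 CPM in late cKO and 261 to 268 CPM in late control hearts, and of 6 fibroblast markers 3 fell. Of 8 cardiomyocyte markers 4 fell, with sums of 58380 to 69846 CPM in late cKO and 67970 to 78397 CPM in late control hearts. Their part in the late falls of Alas1, Alad, Uros and Ppox was not tested. Of 3 fat cell markers tested late 1 fell, and of 2 neutrophil markers 1 rose. Early, no tested marker of these lists was called, but 0 of 5 neutrophil markers and 1 of 5 fat cell markers were tested. The latter had a log2 fold change of 3.28. The fat cell markers summed to 1.65 to 14.8 CPM in early cKO and 0.356 to 1.97 CPM in early control hearts. Early cardiomyocyte sums did not overlap, at 58800 to 63345 CPM in cKO and 65770 to 73531 CPM in control hearts. The part of cardiomyocyte RNA in the early fall of Alas1 was not tested. Macrophages recycle heme and release iron through Slc40a1, and their part in the fall of Slc40a1 was not tested.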

How the data were processed

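The deposited values are read counts per gene symbol, whole numbers in 1 table per time point, whose totals differ between hearts as raw counts do. Per the labels' protocols, poly-A RNA from 100 ng of total RNA was made into TruSeq V2 libraries and read as single ends of 100 nt. The submitters' processing notes name Trimmomatic 0.36, STAR 2.6.0c and GRCm38; the counting tool, annotation and strand setting were not given in any source used here. Each time point was fitted alone in edgeR 4.0.16 (R 4.3.3) by its quasi-likelihood F test after TMM scaling. Genes were kept by filterByExpr with a minimum count of 10 and a minimum total of 15. Adjustment was by Benjamini-Hochberg over all tested genes, and calls were made at an adjusted p under 0.05. The difference between times came from 1 fit of all 14 hearts. Standard errors are the log2 fold change over the square root of F. CPM use TMM-scaled library sizes, and TPM use exon lengths of GENCODE M21. The procedure was tested on simulated counts. Hearts within a group differed by more than sampling noise (chi-square per gene 3.90 or more). The enzymes, gene lists, motifs and tests were chosen with earlier results of these data known. Named genes are the 8 enzymes, at most 4 called genes with the smallest p per list and time, 2 uncalled genes where a result turns on them, and the 5 genes most like Alas1 and Alas2. Some genes of the lists are not reported here. Alternatives were other scalings, no filter, DESeq2 1.42.0, a replicate block, gene sets left out and each heart left out.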

Additional observations from a re-analysis of the deposited data

Results flagged for a closer look

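In 4 of the 8 enzymes the knockout's effect differed between early and late hearts by edgeR's test of that difference itself. The late log2 fold change exceeded the early one by 2.53 for Alas2 (late 2.36, early -0.17). For Uros the difference was -1.29 (late -1.25, early 0.06), for Alad -0.98 (late -1.18, early -0.19) and for Ppox -0.47 (late -0.54, early -0.05). The adjusted p was 0.00534 for Alas2, 2.37e-07 for Uros, 0.00303 for Alad and 0.00756 for Ppox. Each stayed past the threshold under all 23 alternatives tried. Across all genes tested for this difference, 61.2% passed, so 4 of 8 is not more than that background.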

How the results depend on the processing

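The late calls of Alas2, Alad, Uros and Ppox, and the 4 calls of a difference between times, kept their direction and their side of the threshold under every alternative tried. The number of enzymes that fell early was 0 in the fit of all 14 hearts and 0 when cKO replicate 4 was taken as a control. Alas1 late missed the threshold without control replicate 1. Leaving out 1 heart at a time gave 3 to 5 late falls. Upper quartile scaling and total counts shifted the late median of all genes to -0.19 and -0.09.

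Reversals were seen for values near 0, and their cause was not tested. Ppox early was 0.0158 when early cKO replicate 4 counted among the controls. Fech late was -0.0727 with total counts, -0.17 with upper quartile scaling, -0.0034 without mitochondrial-encoded genes and -0.0018 without a filter, and -0.0431 to 0.0868 without 1 heart. The difference between times was for Alas1 -0.0696 with total counts, -0.18 with upper quartile scaling and -0.13 with cKO replicate 4 as a control, and -0.0736 to 0.15 without 1 heart. For Urod it was 0.0109 with DESeq2 size factors, 0.016 without a filter and 0.0228 with DESeq2, and -0.23 to 0.11 without 1 heart. For Fech it was -0.0843 with upper quartile scaling. Without 1 early heart, Alas2 early ranged over -0.52 to 0.71 and Cpox early over -0.0065 to 0.0915. The early cKO share of Alas2 in ALAS TPM was 2.76% with the principal transcript length. Alas2 per 1000 hemoglobin counts, cKO minus control, was 11.7 early with cKO replicate 4 as a control, and without 1 heart it ranged over 15.0 to 20.7 early, with a permutation p of up to 0.0571, and over -0.18 to 7.49 late.

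Same-numbered hearts correlated at -0.089 to -0.039 early and -0.514 to -0.063 late in their deviations from group means. These values gave no sign that the replicate numbers pair the hearts, but so few hearts cannot exclude it. With the replicate block, Alas2 early was 0.0642, Fech late -0.0013 and Alas1 late -0.50 with adjusted p = 0.052, and the early call of Ppargc1a and the late calls of Zfpm1 and Lmo2 were lost. Low counts limit Alas2 early, at 8 to 108 counts a heart.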
